A study of Danio rerio with 2 samples.

Results

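Domains of RNA polymerase II (Pol II) between 5 and 10 kb wide were examined in zebrafish embryos at 4 h post-fertilization (hpf), shortly after transcription from the zygotic genome begins. They were chosen by called width alone, at 5000 bp or more and under 10 kb, on the assembled chromosomes other than chromosome 4, and numbered 939, out of 16718 peaks on those 24 chromosomes and 20243 in the whole list. Their width, covered length and number are therefore descriptions. The embryos were untreated wild-type fish, for which the paper's methods name the Tübingen and Wik strains. They were dechorionated and fixed with formaldehyde. Many embryos were combined per immunoprecipitation, so a peak is an average over all cells of the embryo. The series has 2 samples, chromatin precipitated with the Pol II antibody 8WG16 and untreated input chromatin, and no file of the input itself was used here. The biological replicates had been pooled into a single peak list, so no value below has a replicate check and no test between groups of samples was possible.

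Pol II is recruited to the start of a gene, often accumulates there or just downstream, then travels along the gene body and past its end before release. A narrow peak is the usual footprint of polymerase held near a start site, and a long enriched stretch is the usual footprint of polymerase engaged along a transcribed gene. Antibody 8WG16 was raised against the repeated C-terminal tail of the largest Pol II subunit and prefers the form with little phosphorylation. At zygotic genome activation the polymerase is loaded onto embryonic genes that had been silent through the cleavage divisions. The deposited positions refer to build GRCz10, of which no annotation was used here, so the domains are given by position, counted from 1, without gene names.

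The domains were a small share of peaks and a larger share of the bound sequence. They made up 5.62% of the peaks on the 24 chromosomes (exact Clopper-Pearson 95% interval 5.27 to 5.98) and held 6534180 of 31834560 covered bases, or 20.5%. Peaks under 5 kb, called narrower here, numbered 15281 and held 54.7% of the covered length. Peaks of 10 kb or more, called broader, numbered 498 and held 24.8%. Within the domains the median width was 6720 bp (lower quartile 5730 bp, and 10% were 9010 bp or wider), and numbers fell with each kb of width, from 294 domains of 5 to 6 kb to 98 of 9 to 10 kb. All intervals for shares are of this exact kind, cover counting error only, and treat domains as independent although neighboring domains are not.

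Each peak carries 1 score, read here as 10 times its highest −log10 q, so that 20 is the lowest score in the list. The score measures the statistical strength of the best position in a peak, not the amount of polymerase, and binding in fewer cells cannot be told apart from less binding per cell. Domain scores ranged from 59 to 27692, with a median of 457 and quartiles of 230 and 870. The median was 69 in narrower peaks (quartiles 45 and 137) and 1084.5 in broader ones (quartiles 572.25 and 2209.75). The 3 classes overlapped widely, since 10% of domains scored 138 or less and 10% of narrower peaks scored 311 or more. Score and bounds come from the same call, so these differences are not independent of the width that chose the domains. Among the domains themselves, score and width were only loosely related (Spearman's rho 0.22 across 939 domains, which share 1 call and often a cluster). Scores of 1000 or more were reached by 204 domains (21.7%) and scores of 10000 or more by 12, while 28 scored under 100. Of the 1000 highest scoring peaks in the whole list, 208 were among these domains, where the domains are 939 of its 20243 peaks. Broader peaks, with their higher median score, were not counted among the 1000.

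**Figure D1:**
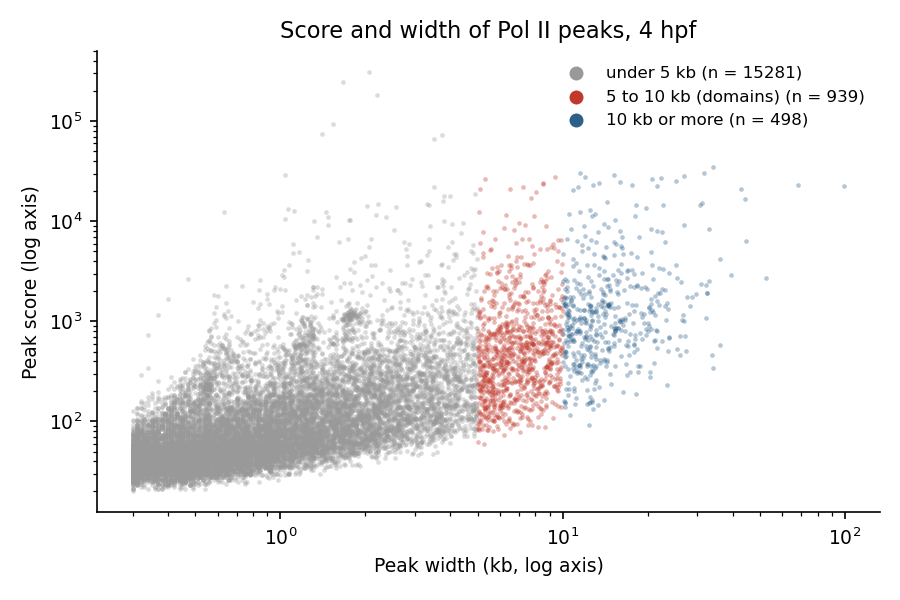
Score of each Pol II peak (vertical axis, log scale) against its width in kb (horizontal axis, log scale) on the 24 chromosomes, 1 point per peak. Domains of 5 to 10 kb (red) lie between narrower peaks (gray) and broader peaks (blue), with scores from 59 to 27692.

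The 10 strongest domains lay on 6 chromosomes, and most had central summits. The summit is the position that the call marks as highest in a peak. Its place is given as a percentage of the width from the left end. The highest score, 27692, belonged to a domain of 9390 bp on chromosome 25 (35757681 to 35767070), whose summit lay at 88.0%. It stood 4430 bp from a broader peak of 33960 bp with a score of 34958. The next, 26665, was a domain of 5320 bp on chromosome 20 (48778741 to 48784060) with its summit at 45.0%. The peaks next to it were much weaker, with scores of 508 and 129, at 300 and 1090 bp.

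A row of 3 of the 10 strongest domains lay side by side on chromosome 7. The first (5832901 to 5841400, 8500 bp) scored 23762, the middle one (5841701 to 5850190, 8490 bp) 24190, and the last (5851211 to 5858940, 7730 bp) 16919. The spaces between them were 300 and 1020 bp, and their summits lay at 60.6%, 21.3% and 56.9% of the width. They thus formed a nearly unbroken called stretch divided by 2 short spaces, with a high score in each piece. Another domain of chromosome 7 (73588541 to 73593650), with a score of 20832, stood 460 bp from a peak of 13480 bp that scored 24418.

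Of the remaining 4, 3 had weak peaks next to them. On chromosome 5 a domain of 7210 bp (29930971 to 29938180) scored 21936, and its nearest peak, 3140 bp away, scored 50. Another domain of chromosome 5 (26828541 to 26835070, 6530 bp) scored 21033, beside a peak of score 43 at 7190 bp. A domain on chromosome 14 (38504731 to 38512760, 8030 bp) scored 19780, with a peak of score 89 at 610 bp. On chromosome 16 a domain of 5070 bp (12356351 to 12361420) scored 12379, and 420 bp away lay a narrow peak of 1040 bp with a score of 10503. Of the 10 strongest domains, 8 had their summit in the inner 50% of the width, and 6 were the strongest peak of their cluster.

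At the other end of the range, the 5 weakest domains all lay in clusters with stronger peaks. The lowest score, 59, belonged to a domain of 5280 bp on chromosome 11 (27742271 to 27747550) in a cluster of 31 peaks. A domain of 5010 bp on chromosome 20 (14010701 to 14015710) scored 63 in a cluster of 12.

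The bounds of the width class cut through a continuous range. Just inside the lower bound, domains of 5000 bp on chromosome 20 (37010151 to 37015150) and chromosome 22 (21996561 to 22001560) scored 1151 and 800, and one of 5010 bp on chromosome 6 (45899071 to 45904080) scored 515. Just outside it, peaks of 4990 bp on chromosomes 2, 16 and 21 scored 860, 740 and 306. Just inside the upper bound, the widest domain, on chromosome 8 (45742451 to 45752440), scored 1259, and those of 9980 bp on chromosome 18 (3041411 to 3051390 and 39130991 to 39140970) scored 556 and 544. Just outside it, peaks of 10000, 10010 and 10020 bp on chromosomes 5, 19 and 21 scored 4686, 814 and 2547.

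Most domains had their summit toward 1 end. The summit lay in the outer 25% of the width at either end in 617 of 939 domains, or 65.7% (95% interval 62.6 to 68.7), where an even spread of summits would give 50%. It lay in the outer 10% in 34.5% (31.5 to 37.6), where an even spread would give 20%. In narrower peaks the share in the outer 25% was 31.6% (30.9 to 32.4) and in broader peaks 76.1% (72.1 to 79.8), and the 3 intervals did not overlap. The place is a fraction of the width, and width chose the 3 classes, so these differences are not independent of that choice. Neither end was preferred: 473 domains had their summit left of the midpoint, or 50.4% (47.1 to 53.6). The list gives no strand, so the direction of transcription through a domain is unknown.

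**Figure D2:**
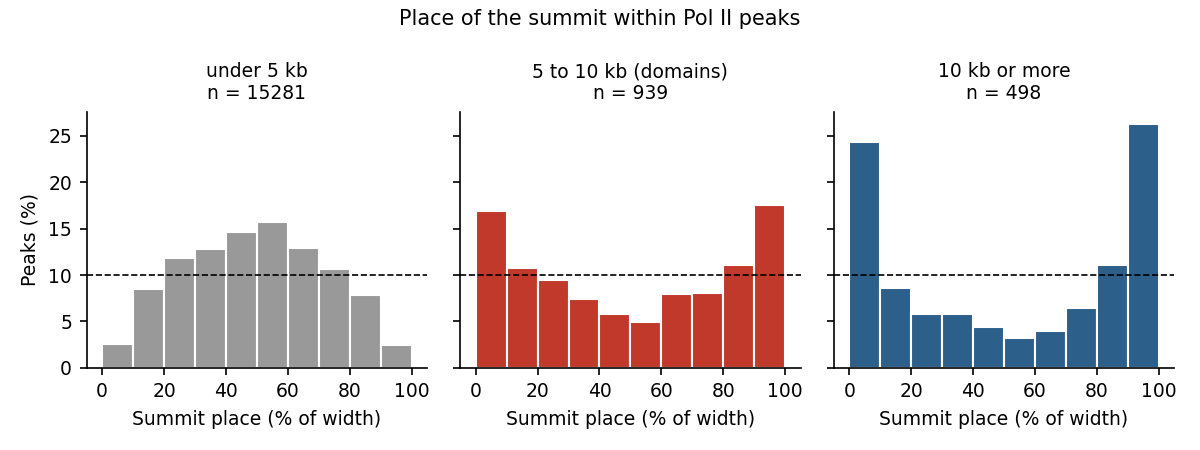
Share of peaks (vertical axis, percent) by the place of the summit in steps of 10% of the peak width (horizontal axis, from the left end) for narrower peaks, domains and broader peaks, with the 10% of an even spread dashed. Domains have 16.9% and 17.6% of summits in their first and last step and 5.75% and 4.90% in the 2 middle steps.

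In base pairs, summits were most crowded shortly inside a domain's edge. Over all domains the median distance from summit to nearer edge was 1175 bp (quartiles 460 and 1985 bp), and the shortest was 180 bp. It was 375 bp for summits in the outer 10%, 1180 bp for those between 10% and 25% from an end and 2302.5 bp for the others. The most crowded 200-bp step was 200 to 400 bp from the edge, with 194 domains (20.7%), against 91 in the next step. Within 500 bp of an edge lay 27.2% of summits (24.3 to 30.1), where an even spread over these widths would give 14.9%. Only 1 summit lay within 200 bp of an edge, and within 300 bp it was 7.24% (5.67 to 9.09), against 8.96% by even spread. Narrower peaks, most of them under 1.5 kb wide, had a median distance of 240 bp, and their 83.6% within 500 bp matched the 83.9% of an even spread to within its interval (83.0 to 84.2). In a peak that narrow nearly every position is close to an edge. In broader peaks 23.7% of summits lay within 500 bp of an edge, against 7.08% by even spread. Crowding of summits near an edge was therefore not particular to domains.

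The share of off-center summits rose gradually with width and did not step at 5 kb. It was 50.6% in peaks of 3 to 4 kb, 55.1% (49.96 to 60.1) in those of 4 to 5 kb and 57.8% (52.0 to 63.5) in domains of 5 to 6 kb. It reached 72.8% (65.8 to 79.1) in domains of 7 to 8 kb and was 73.5% (63.6 to 81.9) in those of 9 to 10 kb. The median distance to the nearer edge stayed between 1095 and 1400 bp over these 5 width steps of the domains, while the median width rose from 5440 to 9490 bp.

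Off-center summits were most frequent at scores of 457 to 868. In 4 groups of 234 or 235 domains ranked by score, from lowest to highest, the share in the outer 25% was 54.0% (47.4 to 60.5), 66.4% (60.0 to 72.4), 78.2% (72.4 to 83.3) and 64.3% (57.8 to 70.4). The last group holds scores of 872 and more. Of the 100 strongest domains 53 had an off-center summit, or 53% (42.8 to 63.1), and of the 50 strongest 21, or 42.0% (28.2 to 56.8). The weakest group and the 100 strongest domains thus had more central summits than the third group. The second and last groups were nearly alike.

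Domains rarely stood alone. Another peak of any width lay within 10 kb of 805 of the 939, or 85.7% (83.3 to 87.9), against 82.4% (81.8 to 83.0) of narrower and 79.5% (75.7 to 83.0) of broader peaks. The share was 94.3% (91.4 to 96.4) in peaks of 4 to 5 kb, just below the domains, and 83.7% (74.8 to 90.4) in domains of 9 to 10 kb. Very short spaces were common: the nearest peak lay within 500 bp of 49.6% of domains (46.4 to 52.9). The share was 35.4% (34.6 to 36.1) in narrower peaks. In broader peaks it was 47.2% (42.7 to 51.7), whose interval overlapped that of the domains. The smallest space between any peaks in the list was 210 bp. The study's methods state no distance for joining, so whether closer bound stretches were called as 1 peak is not known. Within 1 kb of its edge 68.6% of domains had a neighbor, against 52.5% of narrower and 62.2% of broader peaks.

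The nearest neighbors of domains were typically narrower and weaker than the domains, which the choice by width favors. Over the 805 domains with a neighbor within 10 kb, its median width was 1890 bp (quartiles 770 and 4560 bp) and its median score 117 (quartiles 61 and 286). Neighbors of narrower peaks were narrower and weaker still, with medians of 880 bp and 67. Those of broader peaks, with 1925 bp and 114, resembled those of domains. Peaks were joined into clusters where they stood 10 kb or less apart. A domain held a median of 39.1% of the covered length of its cluster, over clusters of 2 or more peaks. It was the strongest peak of such a cluster in 402 of 805 cases, or 49.9% (46.4 to 53.4). That share was 18.3% (17.6 to 18.9) for narrower and 72.0% (67.3 to 76.3) for broader peaks. In clusters with a broader peak only 29 of 156 domains were the strongest, or 18.6% (12.8 to 25.6), and in clusters without one 373 of 649, or 57.5% (53.6 to 61.3).

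The neighbors of a domain lay mainly on the side away from its summit. For each domain the summit side is the end nearer the summit, and the far side is the other end. The nearest neighbor within 10 kb was on the summit side in 240 of 804 domains, or 29.9% (26.7 to 33.1), and on the far side in the rest. One domain with equal spaces on both sides was left out. In narrower peaks the share on the summit side was 45.5% (44.6 to 46.3), and in broader peaks 26.8% (22.5 to 31.5), whose interval overlapped that of the domains. A peak lay within 10 kb of the far edge in 77.4% of domains (74.6 to 80.1) and of the summit-side edge in 48.8% (45.5 to 52.0). Domains with a neighbor only on the far side numbered 347 and those with one only on the summit side 78. The share on the summit side changed with width among all peaks, from 48.2% at 300 to 490 bp to 37.1% at 4 to 5 kb, so the choice by width bears on this value. With all peaks within 500 bp of each other merged first, 983 merged peaks had the width of domains, and the share was 28.4% (25.3 to 31.7), with off-center summits in 67.9% (64.8 to 70.8).

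**Figure D3:**
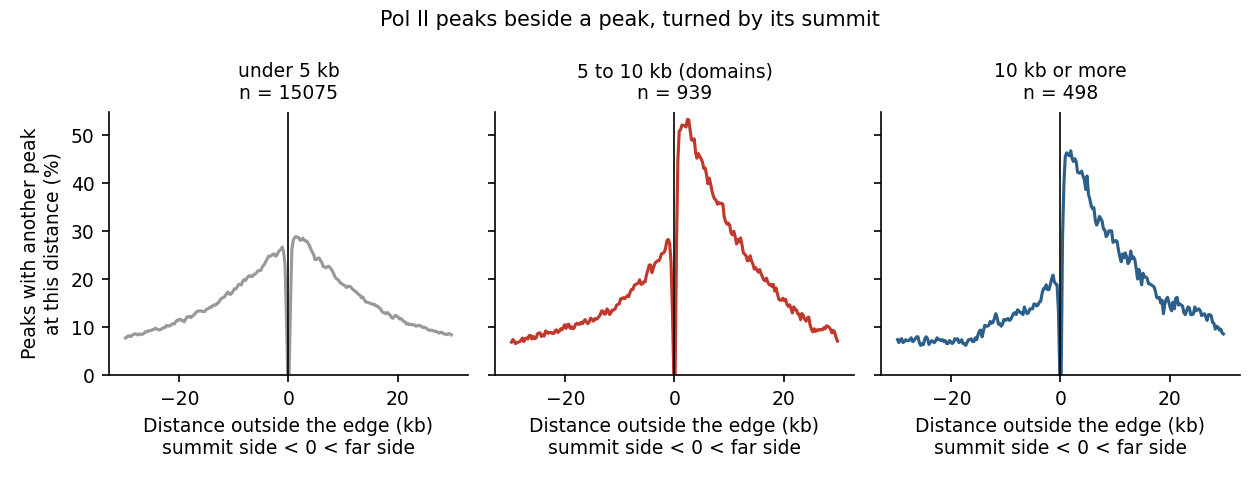
Share of peaks (vertical axis, percent) that have another peak at a given distance outside their edge (horizontal axis, kb, summit side to the left of 0 and far side to the right), in steps of 250 bp, for narrower peaks, domains and broader peaks. Around domains the far side reaches 53.4% and the summit side 28.3%, and around broader peaks 46.8% and 20.9%. The sides of narrower peaks are nearly alike, with highest values of 28.9% and 26.7%.

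Over the first 10 kb outside the edges, a mean of 41.7% of positions on the far side of domains lay in another peak, against 20.4% on the summit side. From 10 to 20 kb the values were 22.7% and 11.9%, and from 20 to 30 kb 11.3% and 8.29%. Around narrower peaks they were 23.7% and 21.5% over the first 10 kb, and around broader peaks 36.2% and 14.7%. The summit-side value of domains was close to that of narrower peaks, and the excess lay on the far side. The first peak on the far side had a median width of 1920 bp and a median score of 105 (n = 727), and the first on the summit side 1380 bp and 131 (n = 458). Where a domain closed its cluster, it did so mostly with the summit side. Clusters were joined at the same 10 kb. These domains are therefore the 347 and 78 given above with a neighbor only on the far or only on the summit side. Their shares are thus not separate support for that asymmetry. Of the 805 domains in clusters, 43.1% (39.7 to 46.6) had no further cluster member on the summit side. On the far side 9.69% (7.73 to 11.9) had none. The shares were 46.7% and 11.6% in broader peaks and 25.4% and 16.5% in narrower ones, so the trait is not particular to domains. From the summit, the cluster extended a median of 3.685 kb on the summit side and 17.225 kb on the far side, to which the place of the summit within the domain itself contributes. For broader peaks these medians were 4.23 and 23.25 kb.

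The 2 asymmetries went together, but they are not separate measures. The summit side is defined by the place of the summit, and close to the midpoint it is nearly arbitrary. That alone would draw the share toward 50% for central summits. Where the summit lay in the outer 10% of the width, the nearest neighbor was on the summit side in 19.2% of 266 domains (14.6 to 24.4). Between 10% and 25% from an end it was 26.5% of 257 (21.2 to 32.3), and with the summit in the inner 50% it was 43.1% of 281 (37.2 to 49.1). By score, the share was 42.5% (35.9 to 49.2) in the weakest of the 4 groups, 22.4% (16.9 to 28.6) and 20.3% (15.0 to 26.5) in the next ones, and 33.7% (26.6 to 41.5) in the strongest. Summit place and score were not crossed. Over widths, the share in domains ran from 34.0% (28.3 to 40.1) at 5 to 6 kb to 23.2% (14.6 to 33.8) at 9 to 10 kb, with overlapping intervals.

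**Figure D4:**
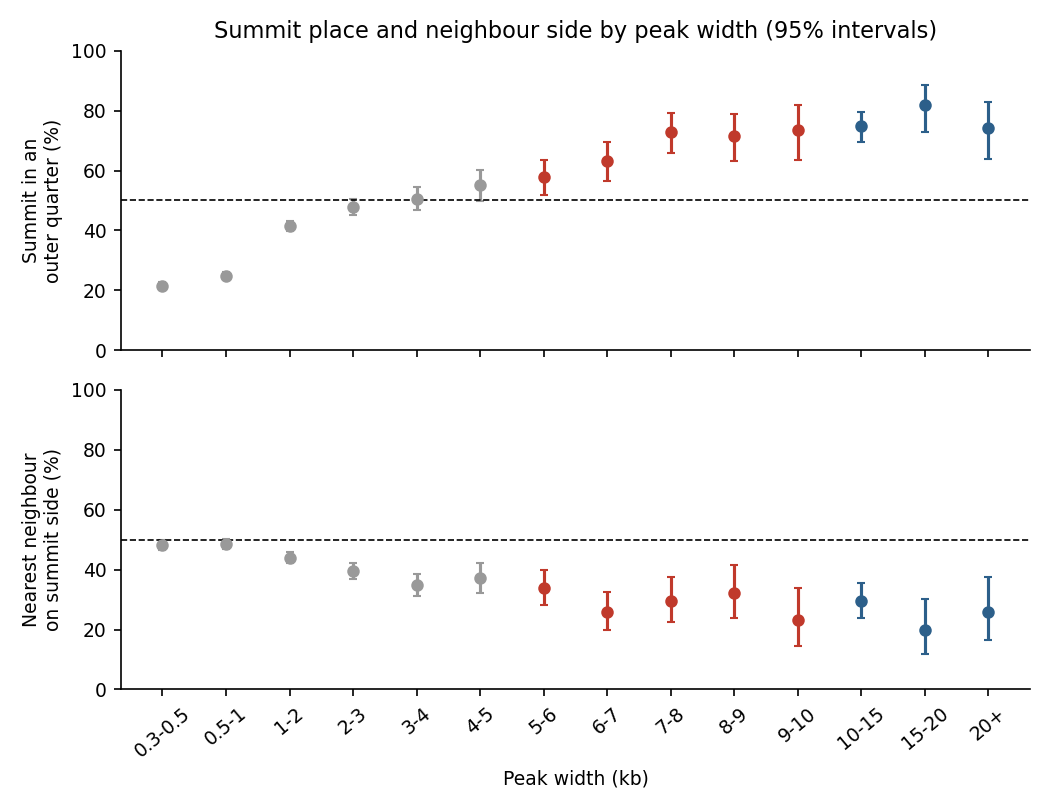
Share of peaks with the summit in the outer 25% of the width (upper panel) and share with the nearest neighbor on the summit side (lower panel), both in percent, by peak width in kb, with exact 95% intervals and the even 50% dashed. Domains (red) range from 57.8% to 73.5% in the upper panel and from 23.2% to 34.0% in the lower one, in sequence with narrower (gray) and broader peaks (blue).

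Domains standing next to each other rarely had summits on facing ends. In 83 pairs of domains at most 10 kb apart with no peak between them, the summits lay on the facing sides of their midpoints in 7, or 8.43% (3.46 to 16.6). They lay on the outer sides in 33, or 39.8% (29.2 to 51.1), and on the same side, both left or both right, in 43, or 51.8% (40.6 to 62.9). Summits placed left and right evenly and independently would give 25%, 25% and 50%. That reference leaves out the tendency of nearest neighbors to lie on the far side, and a reference that includes it was not computed. The pairs come from the same domains and spaces, so they are not separate support for that tendency. Pairs of narrower or broader peaks were not examined. The median space within the pairs was 400 bp.

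The score of a domain went with how crowded its surroundings were. The 134 lone domains, with no peak within 10 kb, had a median score of 901.5. The median was 578 in clusters of 2 to 4 peaks (325 domains), 344 in clusters of 5 to 9 (276 domains) and 268 in clusters of 10 or more (204 domains). Spearman's rho between score and cluster size was −0.41 across the 939 domains, which are not independent and share 1 library pool and 1 input. Width hardly followed cluster size (rho −0.06), and the share of off-center summits differed little, from 63.7% (56.7 to 70.3) in the largest clusters to 69.4% (60.9 to 77.1) in lone domains. In the weakest of the 4 score groups 96.6% had a neighbor within 10 kb (93.4 to 98.5), and in the strongest 70.6% (64.4 to 76.4).

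Most domains were the only one of their class in a cluster. The 939 domains fell into 774 clusters, lone ones included, of which 630 held 1 domain, 125 held 2, 17 held 3 and 2 held 4. The 156 domains in clusters with a broader peak made up 16.6%. One of the clusters with 4 domains, on chromosome 10 (35171071 to 35242640), had 13 peaks, a broader one among them, that covered 54.4 of its 71.57 kb. From left to right its domains scored 169, 389, 429 and 660, and the strongest closed the cluster at its right end, with the summit 270 bp from the edge. The other, on chromosome 23 (6767631 to 6831790), had 16 peaks covering 42.06 kb. Its domains scored 678, 729, 1777 and 244, and the first 3 had their summits in the right part, at 87.8%, 71.8% and 94.8%.

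Of the clusters with 3 domains, those with the longest covered length mixed domains with many small peaks. A cluster of 19 peaks on chromosome 14 (30739181 to 30811570) covered 63.03 kb, and its domains scored 753, 191 and 202 beside a broader peak of 1510. Another, of 26 peaks, on chromosome 10 (42760921 to 42840780) covered 57.37 kb. Its domains scored 147, 161 and 86, all below the 702 of its strongest peak. The third, of 31 peaks, on chromosome 11 (27669341 to 27766870) covered 56.78 kb, and its domains scored 234, 89 and 59. The last cluster was therefore made of weak peaks throughout, with 234 as its highest score.

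Domains occurred on all 24 chromosomes at 0.744 per Mb over 1261 Mb, where the length of a chromosome was taken up to its last peak. Chromosome 19 had the highest density, 1.17 per Mb (57 domains, exact Poisson 95% interval 0.886 to 1.52), followed by chromosome 3 at 1.12 (70 domains, 0.876 to 1.42) and chromosome 6 at 1.06 (64 domains, 0.818 to 1.36). These 3 had intervals above the overall density. Chromosome 18 at 0.412 (21 domains, 0.255 to 0.630) and chromosome 9 at 0.441 (25 domains, 0.285 to 0.651) had intervals below it. The intervals of neighbors in this order overlapped, so ranks between these ends are not resolved. The Poisson intervals treat domains as independent, although 32.9% of domains lay in clusters with 2 or more domains. They may thus be too narrow, and they were not adjusted for looking at 24 chromosomes.

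Density and share of peaks ranked the chromosomes differently. On chromosomes 19 and 6 domains were also a large share of peaks, 8.21% (6.28 to 10.5) and 7.98% (6.20 to 10.1). On chromosome 3, with 19.7 peaks of any width per Mb, the share was 5.69% (4.46 to 7.14), close to the 5.62% overall. Chromosome 22 had the most peaks per Mb, 20.7, and the smallest share of domains, 3.33% (2.20 to 4.80), and chromosome 15 followed with 3.48% (2.24 to 5.13). Across the 24 chromosomes, density of domains went with density of peaks (Spearman's rho 0.53), while the share of domains did not (rho −0.03). The points share 1 peak call. The median score of domains ran from 279 on chromosome 25 to 652 on chromosome 9.

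**Figure D5:**
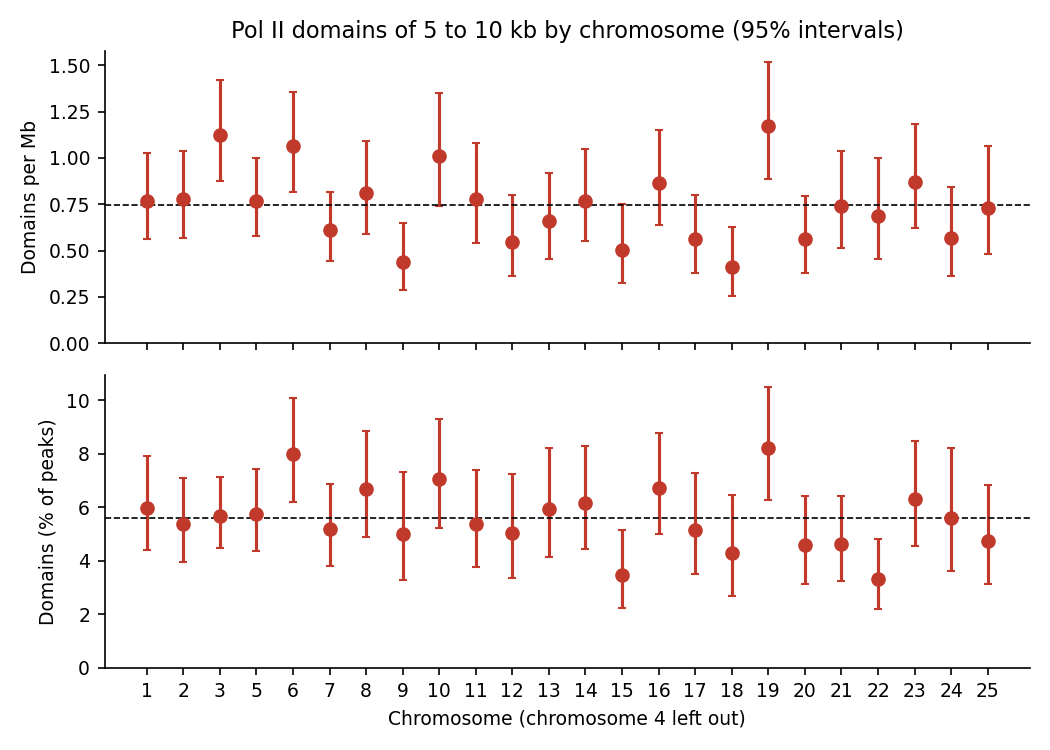
Domains per Mb with exact Poisson 95% intervals (upper panel) and domains as a percentage of all peaks with exact binomial 95% intervals (lower panel) for each of the 24 chromosomes, with the overall values of 0.744 and 5.62% dashed. The whole interval lies above the line for chromosomes 3, 6 and 19 in density and for chromosomes 6 and 19 in share.

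The place of summits and neighbors was alike on most chromosomes. The share of off-center summits was higher in domains than in narrower peaks on 24 of 24 chromosomes and above 50% on 22. It was lowest on chromosome 21, at 38.2% of 34 domains, and 50% on chromosome 13, and highest on chromosome 25, at 81.5% of 27. The nearest neighbor lay on the summit side in under 50% of domains on 24 of 24 chromosomes, from 11.8% on chromosome 18 to 44.0% on chromosome 20. That share was below the share in narrower peaks on 23 of 24. Both shares change with width among all peaks, and width chose the domains. Their difference from narrower peaks on each chromosome is therefore not separate support. The share with a neighbor within 10 kb exceeded that of narrower peaks on only 17 of 24. On chromosome 4, left out by the choice of domains, the 92 peaks of the same width had off-center summits in 77.2%, and the nearest neighbor on the summit side in 34.1% of 82.

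Along the chromosomes most bins of 1 Mb held no domain. Of 1274 bins, 709 held none, 319 held 1 and 160 held 2. With 939 domains many bins must stay empty, and an independent scatter was not computed for comparison. The bin with the most, 53 to 54 Mb of chromosome 6, had 8 domains (53191681 to 53426410) in 4 clusters, which together covered 55.35 kb and scored 95 to 905. A row of 3 of them (53313841 to 53333970) was separated by 440 and 290 bp, with scores of 95, 124 and 628, and ended at the strongest. The bin from 42 to 43 Mb of chromosome 10 had 6 domains in 4 clusters with scores of 86 to 1217. The next 5 bins tied at 5 domains and lay on chromosomes 1, 2, 3, 8 and 19.

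Successive domains on a chromosome stood a median of 746.6 kb apart (quartiles 121.2 and 1885 kb, n = 915 spaces), and 136 of the spaces (14.9%) were 10 kb or less. Spaces over 5 Mb numbered 37. The longest was 10.5 Mb on chromosome 18 (24947211 to 35427950), and the next lay on chromosome 9 (43842611 to 53889550) at 10.05 Mb. In steps of 10% of chromosome length, 6.92% of domains lay between 70% and 80% and 12.1% between 40% and 50%, the lowest and highest steps. Narrower peaks were also fewest between 70% and 80%, at 7.98%, but most frequent in the first 10%, at 12.3%.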

How the data were processed

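Pol II ChIP-seq data came from 4 hpf embryos. According to the study's methods, the authors aligned reads to Zv10 (GRCz10) with Novoalign 2.8, placing reads with several positions at random, merged technical replicates with SAMtools, and ran a multi-replicate wrapper around MACS2 on the biological replicates with 1 input. Signal of repeats may therefore be shared among copies. The methods name a duplicate option (nodup) for the calls without stating its effect. The deposited list gives 1 score per peak and the summit's distance from the peak start, in bp. The authors' score is read as 10 times the highest −log10 q, which the list does not state. Fold enrichment and p and q values are listed as 0 and were not used. Sequencing depth is not in the list, so precision rests on numbers of peaks.

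Widths, spaces, clusters and shares were computed with Python 3.11.15, pandas 2.3.3 and SciPy 1.17.1, with neighbors from the whole list. Since width chose the domains and the call is pooled, no test was run. The functions were tested on simulated data with 900 planted domains, and 3 of 3 planted measures were recovered exactly. Named regions were the 10 highest scoring domains, 3 at each side of each width bound, the 5 clusters and the 3 bins (with ties) with the most domains. Other regions were chosen after their values were seen. Domains and measures were chosen with earlier results of these data known. Annotation and sequence were not analyzed here.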

Additional observations from a re-analysis of the deposited data

How the results depend on the processing

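Of the recomputed values, 12 stayed within the interval of the reported value and 15 moved outside it. The share strongest in their cluster lay on both sides of 50%. With peaks within 500 bp merged first, domains were 7.48% of peaks, 80.1% had a neighbor within 10 kb and 54.6% were strongest in their cluster. With only scores of at least 100 these were 13.5%, 68.8% and 43.2%, and the nearest neighbor was on the summit side in 34.1%. Both alternatives leave fewer peaks in the list, and for the values below the cause was not tested. With widths of 4 to 8 kb, 60.5% of summits were in the outer 25%, 88.9% had a neighbor and 43.9% were strongest. With 6 to 12 kb these were 70.2%, 83.3% and 55.7%. A neighbor within 5 kb was present for 82.5%, and 34.5% of summits lay in the outer 10%. Both definitions can only give lower shares than the reported ones, yet they count among the values that moved. Leaving out clusters of 20 or more peaks kept all 5 values within their intervals. With nearest neighbors over 1 kb away, an alternative chosen after seeing the data, the summit side had 31.1% of 161 (24.0 to 38.8). The planned look at annotation and sequence was not run. No paired analysis was possible because 1 list holds both replicates, and leaving out a replicate was not possible either.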
